A study of Mus musculus with 46 samples.

Results

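The genes described here encode 7 transcription factors of the integrated stress response: Atf4, Atf5, Cebpb, Cebpg, Atf3, Ddit3 (the protein CHOP) and Nupr1. They were chosen by name, as the rows of the deposited tables whose gene symbol is 1 of these 7, out of 55487 genes in each table. The choice was made with earlier results of these data known. Their raw counts were followed through 46 mouse libraries in 11 groups of islets and liver. All 7 were tested in each of the 14 comparisons, and none was lost to the filter on low counts. A second row with the symbol Ddit3 held a count of 0 in every library and was not used.

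Pancreatic islets were compared between mice labelled Tfam control (5 female and 3 male libraries) and Tfam KO (4 female and 2 male). Tfam encodes a protein that packages mitochondrial DNA and helps to start its transcription. Islets were also compared between Clec16a control and Clec16a KO, on the diets given as RFD (4 and 4 libraries) and HFD (6 and 5). Clec16a encodes a regulator of mitophagy, the removal of mitochondria by autophagy. Livers were labelled control (6 libraries), Mfn DKO (4) or Tfam KO (3), and their descriptions carry the letters AAV. Mfn1 and Mfn2 encode the mitofusins that join the outer membranes of mitochondria. The labels give no ages, no strain, no Cre driver or promoter, and a sex only for the Tfam islets. Islets were kept in culture for a night before lysis, also those of the controls, whereas liver was frozen. Each library is labelled a biological replicate, and nothing in the labels says more on whether libraries came from separate animals, so p-values measure the spread between these libraries.

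In the integrated stress response, kinases that sense amino acid shortage, misfolded protein in the endoplasmic reticulum, heme shortage or mitochondrial damage phosphorylate the initiation factor eIF2. Most translation then falls, while mRNAs with upstream reading frames, among them those of Atf4 and Atf5, are translated more. ATF4 pairs with C/EBP proteins such as C/EBPβ (Cebpb) and C/EBPγ (Cebpg) and binds composite C/EBP-ATF response elements near genes of amino acid synthesis and transport. Atf3, Ddit3 and Nupr1 are known downstream genes, and their products shape the later response, including growth arrest and cell death. RNA-seq reads the RNA of these factors and not their translation, so the protein step at which ATF4 and ATF5 are best known to be controlled was not measured.

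The promoters of these genes differ in the response elements they hold within the 250 bases before to 50 bases after the RefSeq start site, which was available for all 7 (GRCm38.p6, with 2 starts for Atf5). The composite element was searched as TGATGNAA and the cAMP response element, which ATF and CREB proteins bind, as TNACGTCA, both on either strand. The 250 bases before the start are shown for Atf3 and Nupr1, the only members of the 7 with a composite element in the window, and for Cebpb, which has neither element. Capitals mark the composite element (TTGCATCA, on the other strand) and, in Atf3, the cAMP response element (TTACGTCA). In Cebpb they mark 3 copies of the half-site TGACG or its complement.
Atf3, chr1:191183334-191183583, minus strand: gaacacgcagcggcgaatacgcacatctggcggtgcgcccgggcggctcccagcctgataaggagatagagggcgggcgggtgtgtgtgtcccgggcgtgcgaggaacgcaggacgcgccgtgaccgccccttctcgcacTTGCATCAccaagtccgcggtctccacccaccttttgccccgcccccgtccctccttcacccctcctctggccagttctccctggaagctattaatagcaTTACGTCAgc
Nupr1, chr7:126625471-126625720, minus strand: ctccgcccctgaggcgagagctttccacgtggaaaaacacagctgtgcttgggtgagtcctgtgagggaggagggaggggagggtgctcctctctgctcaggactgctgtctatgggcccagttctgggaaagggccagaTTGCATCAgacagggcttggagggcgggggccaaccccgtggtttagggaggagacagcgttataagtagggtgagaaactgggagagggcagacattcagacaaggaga
Cebpb, chr2:167688665-167688914, plus strand: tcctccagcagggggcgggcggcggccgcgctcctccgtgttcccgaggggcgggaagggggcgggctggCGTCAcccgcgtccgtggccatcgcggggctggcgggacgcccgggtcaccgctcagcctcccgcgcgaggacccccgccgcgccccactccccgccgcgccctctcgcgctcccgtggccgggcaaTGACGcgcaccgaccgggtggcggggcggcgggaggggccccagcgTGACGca
The composite element lies from base -110 to -103 in both Atf3 and Nupr1, counted from the start site, and the Atf3 cAMP response element from -10 to -3. The AP-1 motif TGANTCA was found only in Ddit3, at -242 to -236. Atf4 has 2 half-sites, and neither Cebpg nor the 2 Atf5 windows hold any of the 4 motifs. Among 27025 genes with such windows, 4.51% hold the composite element, 3.36% the cAMP response element, 8.97% the AP-1 motif and 23.0% the half-site, which is also contained in the cAMP response element. Of 30 known ATF4 target and effector genes with a window, 10 (33.3%) hold the composite element, among them Trib3, Asns, Chac1 and Fgf21. A match is a run of letters and does not show that a factor binds there.

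On GRCm38, Atf3 lies at chr1:191170296-191218039, Cebpb at chr2:167688915-167690418, Ddit3 at chr10:127290774-127296288 and Atf4 at chr15:80255184-80257541. Cebpg (chr7:35046422-35056573), Atf5 (chr7:44812256-44816658) and Nupr1 (chr7:126623249-126630861) share chromosome 7. Atf4 and Nupr1 overlap no other annotated gene. Cebpb shares 20.7% of its exonic bases with Tmem189 on the opposite strand, and Ddit3 and Atf5 share 3.97% and 4.11% of theirs with Mars1 and Nup62. Whether reads were counted by strand is not given in the sources used here, so reads of these pairs may not be told apart where they overlap. In the islets Tmem189 and Nup62 were not called in any knockout comparison, and in liver Tmem189 was called lower in Tfam KO (log2 fold change -0.82, SE 0.20, adjusted p = 0.0103). Mars1 was called higher in Tfam KO islets (log2 fold change 0.38, SE 0.11, adjusted p = 0.0171), by far less than Ddit3.

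Library totals ran from 16235173 to 83342809 counts. Levels are given as CPM, the count relative to library sizes scaled within an experiment, and a gene is called when edgeR's adjusted p is 0.05 or less. The targeted RNA was lower in 3 of the 4 knockout designs. Tfam changed by -1.21 on the log2 scale in islets (SE 0.06, adjusted p = 3.8e-10; means 39.8 and 17.2 CPM) and by -2.004 in liver (SE 0.11, adjusted p = 1.4e-06). In Mfn DKO liver Mfn1 changed by -2.003 (SE 0.15, adjusted p = 2.6e-05) and Mfn2 by -2.04 (SE 0.16, adjusted p = 3.0e-05). The label Clec16a KO went with no called fall of Clec16a RNA (log2 fold change 0.13 on RFD, adjusted p = 0.612, and 0.08 on HFD, adjusted p = 0.740). A count over the whole gene does not show the loss of single exons, so the Clec16a label went unchecked. Single knockout libraries lay at the end of their group's range for several factors at once. The library labelled Clec16a KO HFD replicate 4 was the lowest of its 5 for all 7. Tfam KO liver replicate 1 was the highest of its 3 for all 7 and replicate 3 the lowest for 4 (Atf4, Ddit3, Atf3 and Nupr1), and female Tfam KO islet replicate 2 was the lowest of its 4 for 6. Where leaving out 1 of these libraries changed a call of a factor, or a count by over 1.5 times, the value without it is given.

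**Figure D1:**
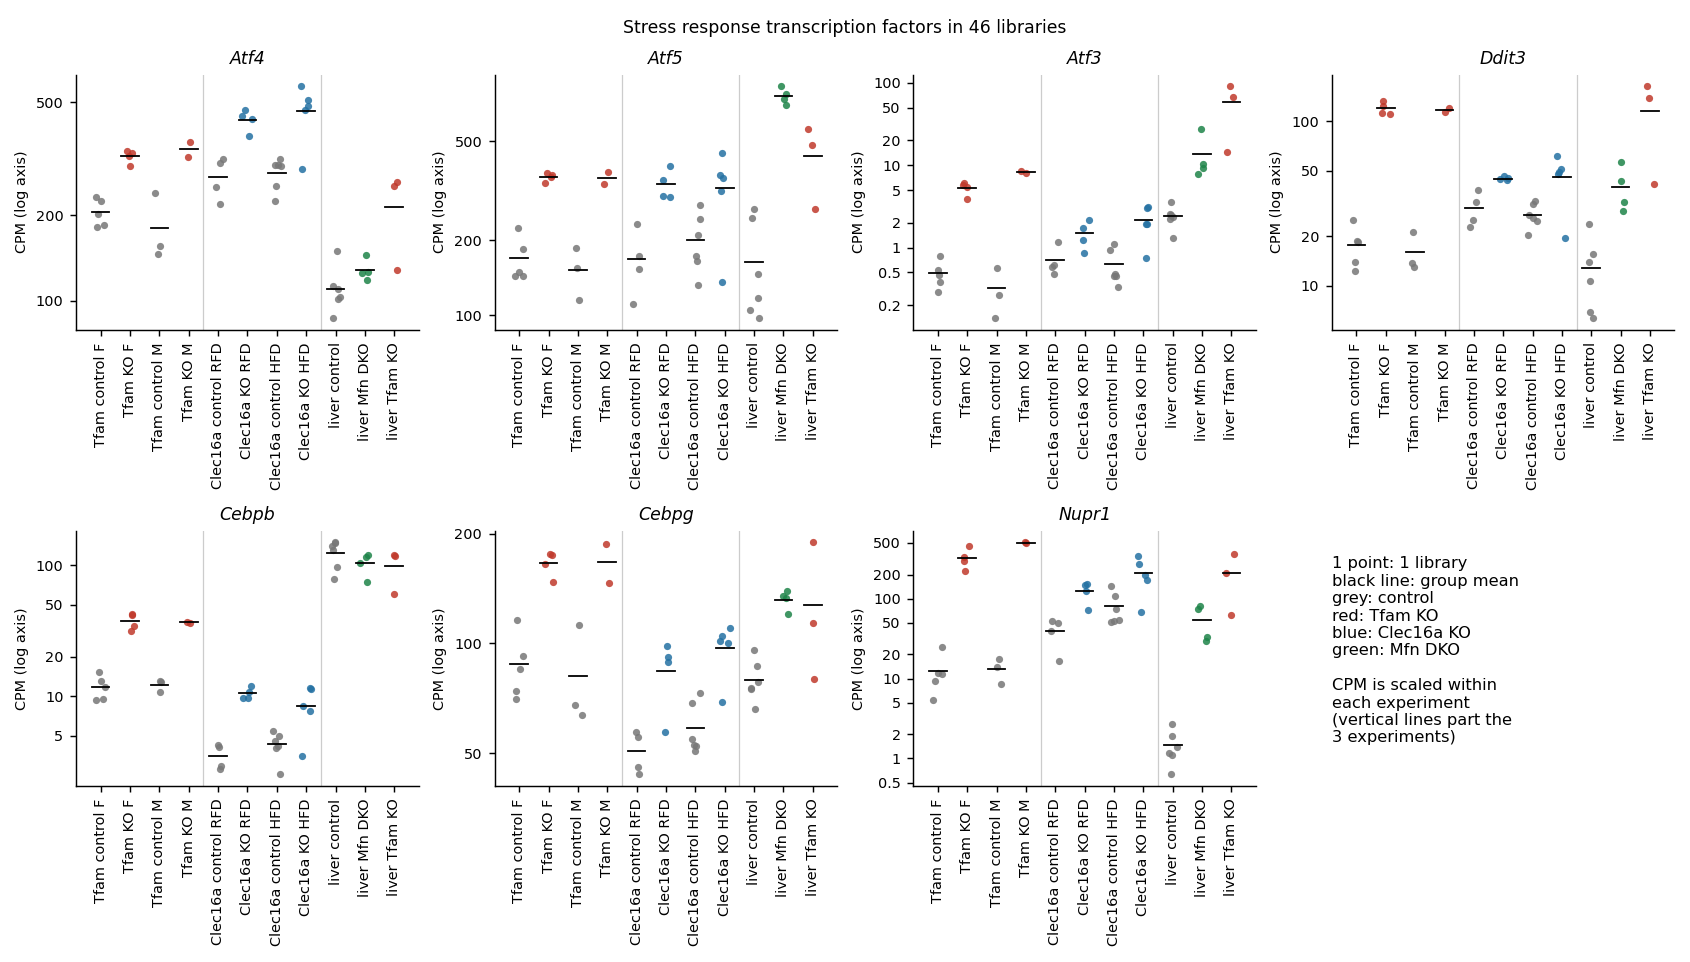
CPM of the 7 factors (log axes) in all 46 libraries, 1 point per library, grouped by genotype, sex or diet and tissue, with a black line at each group mean. Nupr1 spans the widest range, from 0.634 CPM in a control liver to 504 CPM in a male Tfam KO islet library, and Cebpb is the factor whose liver groups lie together.

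In Tfam KO islets all 7 factors rose, in 6 of 6 libraries and without overlap with the 8 controls. In the whole transcriptome 11.6% of 19752 tested genes were called higher and 4.83% were higher without overlap. The median log2 fold change was 1.64 over the 7 factors and -0.01 over all genes tested. Increases were small for the upstream activators Atf4 and Atf5 and the partner Cebpg and large for the downstream factors Ddit3, Atf3 and Nupr1. The fit took sex as a covariate.

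Atf4, the central activator of the response, read 231, 202, 185, 225 and 182 CPM in female controls, 239, 146 and 155 in male controls, 322, 299, 335 and 330.4 in female Tfam KO and 321 and 361 in male Tfam KO. Its mean was 328 CPM against 196 in controls (log2 fold change 0.75, SE 0.10, adjusted p = 8.9e-05). Atf5, which is linked to the mitochondrial unfolded protein response, read 185, 144, 144, 225 and 149 CPM in female controls, 186, 115 and 155 in male controls, 339, 361, 374 and 367 in female Tfam KO and 378 and 336 in male Tfam KO. All 6 knockout libraries lay in a narrow band above every control (log2 fold change 1.14, SE 0.11, adjusted p = 2.7e-06). Among the C/EBP partners, Cebpg, which lacks an activation domain and acts as a dimer partner, read 116, 92.4, 74.2, 85.2 and 70.2 CPM in female controls, 112, 63.6 and 68.0 in male controls, 176, 147, 175 and 165 in female Tfam KO and 188 and 147 in male Tfam KO. The knockout values again lay above the highest control, a female library (log2 fold change 0.96, SE 0.13, adjusted p = 7.6e-05). Cebpb, a factor of many differentiation and stress programmes, read 13.1, 11.8, 9.36, 15.4 and 9.59 CPM in female controls, 12.7, 13.2 and 10.7 in male controls, 41.4, 31.7, 42.7 and 34.6 in female Tfam KO and 36.1 and 37.2 in male Tfam KO. It rose more than Cebpg and with little spread (log2 fold change 1.64, SE 0.11, adjusted p = 2.0e-08).

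Ddit3, whose product CHOP promotes cell death under lasting stress, read 25.1, 18.6, 13.9, 18.4 and 12.3 CPM in female controls, 21.2, 13 and 13.8 in male controls, 133, 111, 123 and 112 in female Tfam KO and 114 and 119.6 in male Tfam KO. The lowest knockout library was several times the highest control (log2 fold change 2.80, SE 0.14, adjusted p = 1.2e-09). Atf3, a bZIP protein that often represses, was nearly silent in controls, where the lowest library held 10 counts, and read 0.471, 0.783, 0.378, 0.539 and 0.289 CPM in female controls, 0.567, 0.268 and 0.140 in male controls, 6.05, 3.94, 5.81 and 5.38 in female Tfam KO and 8.61 and 8.08 in male Tfam KO. Every knockout library lay well above every control (log2 fold change 3.88, SE 0.29, adjusted p = 1.0e-07). Nupr1, a small disordered chromatin protein, read 9.25, 11.7, 11.4, 24.7 and 5.46 CPM in female controls, 17.4, 8.45 and 13.8 in male controls, 449.8, 223, 292 and 327 in female Tfam KO and 504 and 489.7 in male Tfam KO. It had the largest change of the 7 in these islets (log2 fold change 4.89, SE 0.29, adjusted p = 6.7e-09), from a mean of 12.8 to 381 CPM.

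Both sexes showed these changes. All 7 were called in females, where 6.67% of all genes were called higher, and in males, where 5.24% were. For the difference between the sexes no member was called, as was no gene of the whole table (0%) by edgeR. At an unadjusted p under 0.05 there was 1 member, Atf3, against 6.23% of all genes, and DESeq2's Wald test called 0. The Atf3 rise was larger in males by 1.23 (SE 0.51, edgeR unadjusted p = 0.0304, adjusted p = 0.736). Without male Tfam KO replicate 2 the male Atf4 call was lost, and without male replicate 1 that of Cebpg.

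Beta cell markers moved with the factors in Tfam KO islets. All 4 (Ins1, Ins2, Iapp and Slc2a2) fell, and their summed level was 103978 to 139140 CPM in female knockouts against 185529 to 291428 in female controls, and 126545 to 127110 against 247772 to 262631 in males. In bulk samples fewer cells of a type and less RNA per cell cannot be told apart. The part of this shift in the factors' rise was not tested. Acinar markers had medians of opposite sign in the sexes, and none of the 7 was called in either. Their summed level was 749 to 7498 CPM in female controls and 1092 to 2845 in female knockouts (median log2 fold change -0.98), and 1577 to 4680 in male controls and 2580 to 12958 in male knockouts (median 1.25). Of 4 fibroblast and stellate markers Col3a1 and Col1a1 were called higher (1.04 and 1.38), and their summed level was 26.8 to 56.5 CPM in knockouts against 18.5 to 31.2 in controls. The fit with the acinar level as a covariate called all 7 factors. Of the hepatocyte markers, Alb had a mean of 0.868 CPM in controls and 0.897 in knockouts, and Cps1 was at 0 in all 8 controls.

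In islets of the libraries labelled Clec16a KO on RFD, 5 of the 7 factors rose: Atf4, Atf5, Cebpb, Cebpg and Nupr1. Of all 17254 genes tested 3.99% were called higher. In 6 of the 7 the 4 knockout libraries lay above all 4 controls, which 7.74% of all genes did. The exception was Atf3, where 3 of 4 lay above. Changes were of a like, moderate size, from 0.60 for Ddit3 to 1.64 for Nupr1, with a median of 1.01 against -0.00 over all genes.

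Atf4 read 219, 314, 251 and 305 CPM in controls and 379, 469.7, 446 and 436 CPM in knockouts, with no overlap (log2 fold change 0.67, SE 0.17, adjusted p = 0.0185). For Atf5 the values were 111, 153, 174 and 233 CPM in controls and 298, 302, 400.1 and 350.1 CPM in knockouts (log2 fold change 1.01, SE 0.28, adjusted p = 0.0334). The Atf5 call was not firm: it was lost under 9 of 17 alternative settings, 6 of which leave out 1 library. Cebpb showed the clearest change, with 2.80, 4.12, 2.91 and 4.22 CPM in controls and 9.78, 9.74, 11.9 and 10.8 CPM in knockouts (log2 fold change 1.58, SE 0.28, adjusted p = 0.00385). Each knockout library held clearly more Cebpb than the highest control. Cebpg read 43.7, 57.0, 45.8 and 55.5 CPM in controls and 57.1, 91.8, 98.4 and 89.0 CPM in knockouts (log2 fold change 0.74, SE 0.17, adjusted p = 0.0126). Replicate 1 of the knockouts lay barely above the highest control and the other 3 well above.

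Nupr1 read 16.7, 49.0, 39.9 and 52.1 CPM in controls and 71.9, 146, 125 and 150.4 CPM in knockouts (log2 fold change 1.64, SE 0.43, adjusted p = 0.0246). Its lowest control, replicate 1, was also the lowest control for 5 other factors. Ddit3 read 22.9, 24.9, 32.3 and 38.3 CPM in controls and 45.0, 44.2, 46.2 and 43.7 CPM in knockouts. The 4 knockout values were nearly equal and above every control, yet the difference was not called (log2 fold change 0.60, SE 0.23, adjusted p = 0.132). Mars1, which overlaps Ddit3 in part, was called higher here (log2 fold change 0.68, SE 0.16, adjusted p = 0.0165). Atf3 read 0.576, 1.18, 0.485 and 0.610 CPM in controls and 2.17, 0.853, 1.72 and 1.23 CPM in knockouts, on few counts (11 in the lowest control), and was not called (log2 fold change 1.03, SE 0.45, adjusted p = 0.172). The count of called members was 1 without control replicate 3, 2 without control replicate 1 or knockout replicate 2, 3 without knockout replicate 4, and 5 by DESeq2's Wald test.

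On HFD 6 of the 7 factors rose in the libraries labelled Clec16a KO, where 5.62% of all genes were called higher. Atf5 was the exception. For each of the 7, 4 of the 5 knockout libraries lay above all 6 controls, and in each case the fifth, replicate 4, did not. With that library in the group no member was free of overlap, and 1.24% of all genes were higher without overlap. How many of all genes had 4 of the 5 knockout libraries above all controls was not counted. Replicate 4 read from 0.680 times the control mean for Atf5 to 1.2 times for Atf3. Its mean log2 CPM over 39 effector genes of the response was 4.06, just below the lowest control (4.07, with the highest at 4.58) and far below the other knockouts (5.70 to 5.91). Its beta and endothelial marker levels lay within the range of the controls. Its genotype label could not be checked from Clec16a RNA.

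The knockout values of Atf4, in order of replicate, were 569, 510.0, 470.4, 289.7 and 484 CPM in the 5 knockouts, against controls from 223 to 316 CPM with a median of 299 (log2 fold change 0.72, SE 0.14, adjusted p = 0.00347). Atf5 read 367, 355, 317, 136 and 450.0 CPM in the 5 knockouts, against controls from 133 to 277 CPM with a median of 192 (log2 fold change 0.70, SE 0.24, adjusted p = 0.0693). Without replicate 4 the Atf5 change was 0.90 (edgeR adjusted p = 0.00216) and all 7 factors were called, while the share of all genes called higher rose to 10.5%. Cebpb read 11.5, 11.3, 8.48, 3.48 and 7.72 CPM in the 5 knockouts, against controls from 2.54 to 5.47 CPM with a median of 4.38 (log2 fold change 0.98, SE 0.24, adjusted p = 0.0136), and Cebpg 101, 100.4, 110.1, 69.1 and 105 CPM in the 5 knockouts, against controls from 50.6 to 73.0 CPM with a median of 53.7 (log2 fold change 0.73, SE 0.14, adjusted p = 0.00359). In both, the 4 knockouts other than replicate 4 lay above the highest control.

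Among the downstream factors Ddit3 read 61.1, 47.7, 51.2, 19.5 and 49.1 CPM in the 5 knockouts, against controls from 20.4 to 32.7 CPM with a median of 26.3 (log2 fold change 0.76, SE 0.20, adjusted p = 0.0215). Atf3 was at 3.13, 3.06, 1.95, 0.759 and 1.94 CPM in the 5 knockouts, against controls from 0.332 to 1.12 CPM with a median of 0.467 (log2 fold change 1.78, SE 0.38, adjusted p = 0.00663). Nupr1 was at 340.4, 198, 171, 67.7 and 273 CPM in the 5 knockouts, against controls from 51.3 to 145 CPM with a median of 63.8 (log2 fold change 1.38, SE 0.36, adjusted p = 0.0202). The Nupr1 controls were spread widely here, with replicates 1 and 4 above 100 CPM. Leaving out replicate 4 raised the log2 fold changes to 0.85 for Atf4, 1.18 for Cebpb, 0.83 for Cebpg, 0.95 for Ddit3, 2.01 for Atf3 and 1.61 for Nupr1. Without knockout replicate 1, the highest library for 5 of the 7, the number called was 3.

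The 2 sequencing lanes named in the deposited file names each held both genotypes, and the knockout mean was above the control mean for all 7 factors in each lane on each diet. The differences in mean log2 CPM ran from 0.67 for Cebpg to 1.95 for Nupr1 in lane 7 on RFD, and from 0.33 for Ddit3 to 1.68 for Nupr1 in lane 8, which held 1 knockout. On HFD they ran from 0.95 to 2.03 in lane 7 and from 0.33 to 1.85 in lane 8, which held replicate 4. Endothelial markers moved with the factors: all 4 (Pecam1, Kdr, Cdh5 and Plvap) were called higher on both diets, with summed levels of 472 to 584 CPM against 272 to 300.005 on RFD and 300.4 to 558 against 255 to 352 on HFD. Of 4 fibroblast and stellate markers tested, 1 was called higher on RFD (Pdgfrb, 0.70) and 3 on HFD (Pdgfrb, Col3a1 and Col1a1, at 0.64, 0.97 and 0.88), and their summed levels were 36.3 to 66.6 CPM against 28.7 to 37.1 on RFD and 45.7 to 83.3 against 27.3 to 49.7 on HFD. Of the beta markers only Slc2a2 was called lower, on both diets. The part of these shifts in the factors' change was not tested.

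Diet made no called difference to any of the 7. Between HFD and RFD, 0 members were called in controls (0.0406% of all genes), 0 in knockouts (0.0116%) and 0 for the difference of the knockout effect between diets (0%), by edgeR and by DESeq2's Wald test. At an unadjusted p under 0.05 the member counts were 1, 0 and 0, against 5.64%, 5.48% and 2.35% of all genes. The 1 member was Nupr1 in controls, higher on HFD by 1.03 (SE 0.40, edgeR unadjusted p = 0.0172, adjusted p = 0.708). The SE of the difference between diets in the knockout effect ran from 0.22 to 0.59.

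**Figure D2:**
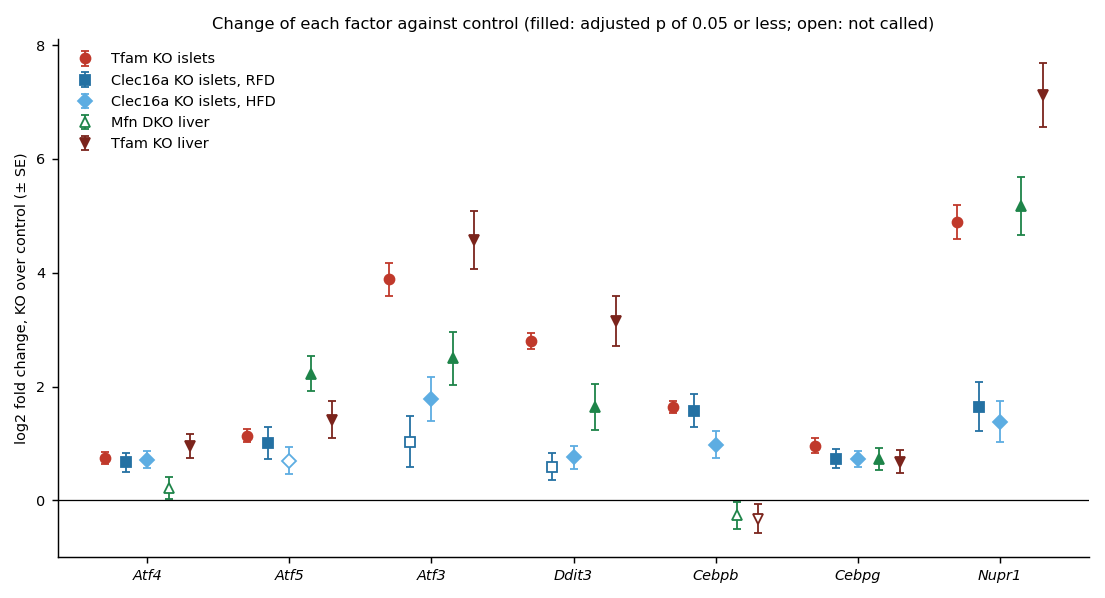
Log2 fold change of each factor, knockout over control, with its SE, in 5 comparisons; filled symbols are called and open ones are not. Atf4 and Cebpg changes stay below 1 in all 5 comparisons, Nupr1 reaches 7.12 in Tfam KO liver, and Cebpb lies above 0 in islets and just below 0 in both liver knockouts.

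In Mfn DKO livers 5 of the 7 factors rose: Atf5, Cebpg, Ddit3, Atf3 and Nupr1. Of 17024 genes tested 5.23% were called higher. These 5 lay above all 6 control livers in 4 of 4 libraries, as did 8.95% of all genes. Atf4 and Cebpb were not called. The median change of the 7 was 1.64, against 0.02 over all genes.

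Atf5 read 776, 835, 744 and 701 CPM in the 4 knockouts, against controls from 97.4 to 268 CPM with a median of 132 (log2 fold change 2.22, SE 0.31, adjusted p = 0.00123). The knockouts were close to one another and far above the controls. Atf4 read 125, 126, 144 and 118 CPM in the 4 knockouts, against controls from 86.9 to 149 CPM with a median of 106. All 4 knockout values lay inside the control range (log2 fold change 0.22, SE 0.19, adjusted p = 0.485). Cebpg read 135, 139, 133 and 120.3 CPM in the 4 knockouts, against controls from 65.9 to 95.8 CPM with a median of 77.1 (log2 fold change 0.73, SE 0.19, adjusted p = 0.0306), a call lost under 10 of 18 alternative settings although no library overlapped. Cebpb, which drives acute phase genes in hepatocytes, read 115, 74.5, 104 and 119.5 CPM in the 4 knockouts, against controls from 79.2 to 149 CPM with a median of 135 and was slightly lower on average without being called (log2 fold change -0.26, SE 0.23, adjusted p = 0.490).

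Nupr1 read 33, 73.8, 29.8 and 79.7 CPM in the 4 knockouts, against controls from 0.634 to 2.69 CPM with a median of 1.27, where the lowest control held 24 counts (log2 fold change 5.18, SE 0.51, adjusted p = 1.8e-04). Replicates 2 and 4 held more than replicates 1 and 3. Ddit3 read 28.5, 43.0, 32.4 and 56.1 CPM in the 4 knockouts, against controls from 6.37 to 23.6 CPM with a median of 12.3 (log2 fold change 1.64, SE 0.40, adjusted p = 0.0250). Atf3 read 9.19, 10.3, 7.83 and 27.4 CPM in the 4 knockouts, against controls from 1.32 to 3.58 CPM with a median of 2.42 (log2 fold change 2.50, SE 0.46, adjusted p = 0.00685). Replicate 4 was far above the other 3 for Atf3 and was the highest for Ddit3 and Nupr1. The number of called members fell to 3 without control replicate 6, Mfn DKO replicate 2 or Mfn DKO replicate 4.

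In Tfam KO livers 6 of the 7 factors rose, where 18.1% of all genes were called higher. Only Cebpb was not called. Atf5, Ddit3, Atf3 and Nupr1 lay above all 6 controls in 3 of 3 libraries, which 10.7% of all genes did, and Atf4 and Cebpg in 2 of 3. The median change of the 7 was 1.42 against 0.03 over all genes. Replicate 1 was the highest of the 3 libraries for all 7 factors, and Tfam RNA was about equally low in the 3.

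Atf4 read 261, 252 and 129 CPM in the 3 knockouts, against controls from 86.9 to 149 CPM with a median of 106 (log2 fold change 0.96, SE 0.21, adjusted p = 0.00570), and replicate 3 lay inside the control range. Atf5 read 561, 269 and 483 CPM in the 3 knockouts, against controls from 97.4 to 268 CPM with a median of 132 (log2 fold change 1.42, SE 0.32, adjusted p = 0.00745). Replicate 2 of Atf5 exceeded the highest control by less than 1 CPM. Cebpg read 189, 79.8 and 114 CPM in the 3 knockouts, against controls from 65.9 to 95.8 CPM with a median of 77.1 (log2 fold change 0.68, SE 0.20, adjusted p = 0.0251). Its call rested on replicate 1, without which the change was 0.29 (edgeR adjusted p = 0.220). Cebpb read 119.6, 60.4 and 118 CPM in the 3 knockouts, against controls from 79.2 to 149 CPM with a median of 135 (log2 fold change -0.32, SE 0.26, adjusted p = 0.367). No Cebpb value lay above the highest control.

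Nupr1 read 357, 207 and 62.4 CPM in the 3 knockouts, against controls from 0.634 to 2.69 CPM with a median of 1.27 (log2 fold change 7.12, SE 0.56, adjusted p = 3.4e-05), the largest change of any of the 7 in the 5 knockout comparisons. Ddit3 read 163, 139 and 41.6 CPM in the 3 knockouts, against controls from 6.37 to 23.6 CPM with a median of 12.3 (log2 fold change 3.15, SE 0.43, adjusted p = 8.4e-04). For Atf3 the values were 91.4, 67.6 and 14.5 CPM in the 3 knockouts, against controls from 1.32 to 3.58 CPM with a median of 2.42 (log2 fold change 4.57, SE 0.51, adjusted p = 2.3e-04). In all 3 of these genes replicate 3 was the lowest knockout library and still above every control. Without replicate 3 the changes were 7.54 for Nupr1, 3.54 for Ddit3, 5.02 for Atf3, 1.2 for Atf4 and 1.33 for Atf5, and 6 of 7 were called.

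**Figure D3:**
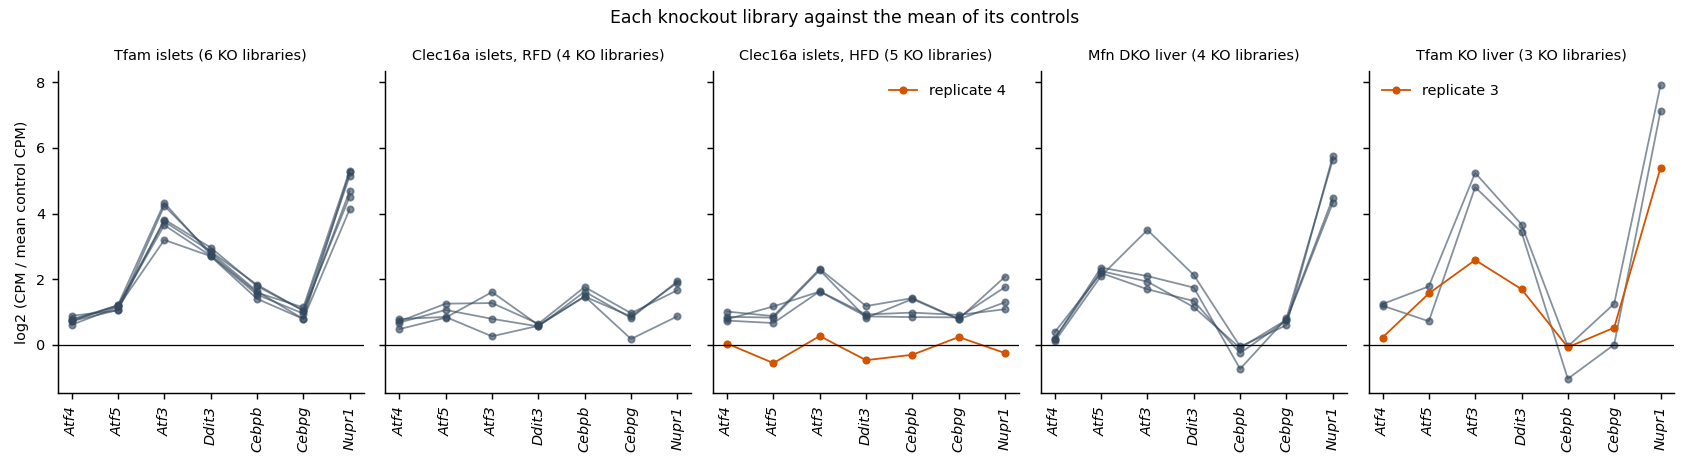
Log2 ratio of each knockout library's CPM to the mean of its controls for the 7 factors, 1 line per library and 1 panel per comparison; the lines of Clec16a KO HFD replicate 4 and Tfam KO liver replicate 3 are orange. The 6 Tfam islet lines lie above 0 at all 7 genes and spread most at Nupr1 (4.13 to 5.30) and Atf3 (3.196 to 4.33), the orange HFD line runs between -0.56 (Atf5) and 0.27 (Atf3), and the orange liver line is the lowest of the 3 for Atf4, Atf3, Ddit3 and Nupr1.

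Hepatocyte markers were called lower in part and in 1 of the 2 models. Of 5 markers, 2 (Ttr and Apoa1) were called lower in Tfam KO liver and 0 in Mfn DKO liver, and their summed level was 21212 to 85572 CPM in Tfam KO, 68511 to 88599 in Mfn DKO and 81048 to 126773 in controls. Replicate 2 of the Tfam KO livers had the lowest hepatocyte level. Macrophage markers overlapped among the 3 groups (217 to 425 CPM in controls, 284 to 536 in Mfn DKO and 93.5 to 439.9 in Tfam KO), and Ins1 and Iapp were at 0 in every liver. The stellate marker Col1a1 was called higher in both knockouts. The part of these markers in the results was not tested.

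The livers carry no sex label. Xist was above 100 CPM in 3 of 6 control, 2 of 4 Mfn DKO and 2 of 3 Tfam KO livers. In controls those 3 libraries had more Atf5 than the other 3 (146 to 268 CPM against 97.4 to 117). They also had more Ddit3 (14 to 23.6 against 6.37 to 10.7) and more Nupr1 (1.38 to 2.69 against 0.634 to 1.17). The ranges of the remaining factors overlapped, and the Cebpb mean was lower in those libraries (105 against 143 CPM). In Mfn DKO livers the libraries above 100 CPM of Xist had more Nupr1 (73.8 to 79.7 CPM against 29.8 to 33). They also had more Ddit3 (43.0 to 56.1 against 28.5 to 32.4) and more Atf3 (10.3 to 27.4 against 7.83 to 9.19). The ranges of the remaining factors overlapped there, among them Atf5 (701 to 835 against 744 to 776). In Tfam KO livers the order was the opposite: the 1 library below 100 CPM of Xist, replicate 1, had the most Nupr1 (357 CPM against 62.4 to 207), Ddit3 (163 against 41.6 to 139) and Atf5 (561 against 269 to 483). How many of all genes split in these ways was not counted. With Xist above 100 CPM as a covariate the numbers called were again 5 in Mfn DKO and 6 in Tfam KO liver.

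Set against each other, the 2 liver knockouts share their controls, and the direct test called 0 of the 7 factors by edgeR, 4 by DESeq2's Wald test and 5 at an unadjusted p under 0.05. Over all genes 0.294% (50 of 17024) were called by edgeR and 20.4% had an unadjusted p under 0.05. Alternatives other than leaving out 1 library, the Wald test among them, called 6 to 1087 genes. The share called by the Wald test alone is not given here. Point estimates put Nupr1, Atf3, Ddit3 and Atf4 higher in Tfam KO by 1.95 (SE 0.54, adjusted p = 0.101), 2.08 (SE 0.54, adjusted p = 0.101), 1.52 (SE 0.48, adjusted p = 0.122) and 0.74 (SE 0.23, adjusted p = 0.118). Without Tfam KO replicate 3 these 4 were called, at 2.38, 2.53, 1.91 and 0.99, and so were 24% of all genes. Atf5 went the other way without being called (log2 fold change -0.80, SE 0.37, edgeR adjusted p = 0.241). Its 3 Tfam KO values lay below all 4 Mfn DKO values, and the share of all genes that did so is not given here. Cebpb and Cebpg differed by -0.06 (SE 0.27) and -0.04 (SE 0.23).

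The same targeted gene, Tfam, could be compared between islets and liver in a fit of all 46 libraries, where 21.8% of all genes were called. For Cebpb the Tfam effect was higher in islets by 1.97 (SE 0.32, adjusted p = 1.8e-05). It rose in 6 of 6 islet libraries, and no liver knockout exceeded the highest control. For Nupr1 the effect was lower in islets, by -2.12 (SE 0.61, adjusted p = 0.00919), a call that rested on liver replicate 1: without it the difference was -1.51 (edgeR adjusted p = 0.0873) and Cebpg was called instead at 0.70 (edgeR adjusted p = 0.0459). Nupr1 started from 1.49 ± 0.725 CPM (SD, n = 6) in control liver and from 12.8 ± 5.997 CPM (SD, n = 8) in islets of controls. The other 5 differences ran from -0.50 for Atf3 to 0.32 for Cebpg and were not called. Tissue, islet culture, the way the gene was deleted and the sequencing of each experiment differ together in this comparison and cannot be told apart.

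Between the 2 islet models, Tfam KO and Clec16a KO on RFD, the downstream factors differed and the upstream ones did not pass the test. The Tfam effect was larger for Nupr1 by 3.30 (SE 0.60, adjusted p = 5.7e-04), for Atf3 by 3.02 (SE 0.62, adjusted p = 0.00229) and for Ddit3 by 2.20 (SE 0.42, adjusted p = 8.1e-04), and 5.11% of all genes were called in this comparison. For Atf4, Atf5, Cebpb and Cebpg the differences were 0.10 (SE 0.23), 0.13 (SE 0.36), 0.03 (SE 0.33) and 0.22 (SE 0.25). Model and experiment cannot be told apart here.

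Levels across all groups are compared by the authors' TPM, which is scaled by gene length, so that genes can be ranked too. The liver groups and islet experiments are separate, and no test was made. Atf4 was lowest in control liver (100.1 ± 19.3 TPM, SD) and highest in Clec16a KO HFD islets (467 ± 119). The 5 highest Atf4 groups were all knockouts and were not apart by 1 SD each. Atf5 was highest in Mfn DKO liver (1009 ± 76.4 TPM) and next in Tfam KO liver (698 ± 165). The 5 control groups of Atf5, 167 to 207 TPM, lay together.

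Cebpb stood apart in this order. It was far higher in every liver group (176 ± 39.3 TPM in controls, 181 ± 34.6 in Mfn DKO and 209 ± 40.7 in Tfam KO) than in any islet group. Among islets it ran from 4.85 ± 1.11 in Clec16a controls on RFD to 70.3 ± 11.3 in female Tfam KO. The TPM means of Cebpb were higher in the liver knockouts than in controls whereas the scaled CPM means were lower, so its direction in liver depends on the scale. The size of a difference depended on the scale for other factors too. Atf4 means in control and Tfam KO liver were 100.1 and 313 TPM but 110 and 214 scaled CPM. The order of groups by TPM is read with that limit. Cebpg ran from 18.7 ± 2.72 in Clec16a controls on RFD to 82.9 ± 8.22 in female Tfam KO islets.

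Ddit3 was highest in Tfam KO liver (233 ± 147 TPM) and in female and male Tfam KO islets (196 ± 22.0 and 187 ± 15), which did not differ beyond their spread. All other groups were at or below 63.6 ± 23.4. Atf3 was highest in Tfam KO liver (93.8 ± 65.6), followed by Mfn DKO liver (16.7 ± 11.1), and the 4 islet control groups were below 1 TPM. Nupr1 ran from 1.27 ± 0.632 in control liver to 543 ± 13.3 in male Tfam KO islets. In control liver it was the lowest of the 7 factors, while Atf5, Cebpb and Atf4 were the 3 highest. In the islet controls Atf3 was the lowest and Atf4 the highest.

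Genes that act in the same pathway moved beside the factors. The gene lists, like the factors, were chosen with earlier results of these data known, so their counts are descriptions. A list of 39 known effectors of the integrated stress response, enzymes and transporters of amino acid, one-carbon and redox metabolism and stress proteins, had 33 members called higher and 0 lower in Tfam KO islets (median 1.09). The numbers were 26 and 0 in Clec16a KO islets on RFD (median 0.90), 23 and 0 on HFD (0.77), 18 and 0 in Mfn DKO liver (1.10) and 31 and 1 in Tfam KO liver (2.15). Of all genes 9.29%, 3.54%, 3.95%, 4.64% and 11.3% were called lower in these 5 comparisons, beside the 11.6%, 3.99%, 5.62%, 5.23% and 18.1% called higher. The effector counts moved by over 1.5 times under some settings. On RFD the count was 16 without control replicate 3. In Mfn DKO liver it was 10 without Mfn DKO replicate 2, 6 with the immediate early gene score, 5 with a replicate block and 28 in a fit of only the compared groups. In Tfam KO liver it was 19 with the immediate early gene score and 11 with the block. Trib3, a pseudokinase that restrains ATF4 and CHOP, rose from 5.09 to 181 CPM in Tfam KO islets (log2 fold change 5.25, SE 0.30, adjusted p = 3.7e-09), by 4.22 in Mfn DKO liver (adjusted p = 3.0e-05) and by 5.43 in Tfam KO liver (adjusted p = 9.7e-06).

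Effectors among those of smallest adjusted p in each model were the following. In Tfam KO islets Fam129a, known as Niban, rose by 3.004 and the mitochondrial folate enzyme Aldh1l2 by 2.44. In Clec16a KO islets the amino acid transporter Slc7a3 rose from 1.04 to 24.8 CPM on RFD (log2 fold change 4.55, SE 0.69, adjusted p = 0.00196) and by 5.41 on HFD (adjusted p = 1.0e-04), and the proline synthesis enzyme Pycr1 by 1.99 and 2.002. In Mfn DKO liver the hormone gene Fgf21 rose from 2.32 to 66.2 CPM (log2 fold change 4.82, SE 0.60, adjusted p = 6.4e-04). The serine synthesis enzymes Psat1 and Phgdh both rose by 7.19 in Tfam KO liver, from 1.14 to 168 and from 0.345 to 51.8 CPM. Over the effectors, the Tfam effect was called lower in islets than in liver for 21 genes (53.8%) and higher for 3 (7.7%). Of all genes 21.8% were called there, in either direction. Between Tfam KO islets and Clec16a KO islets on RFD the effect differed for 1 of the 39 (2.6%), Trib3, against 5.11% of all genes. The Trib3 effect was higher in Tfam KO by 2.47 (SE 0.62, adjusted p = 0.0124).

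**Figure D4:**
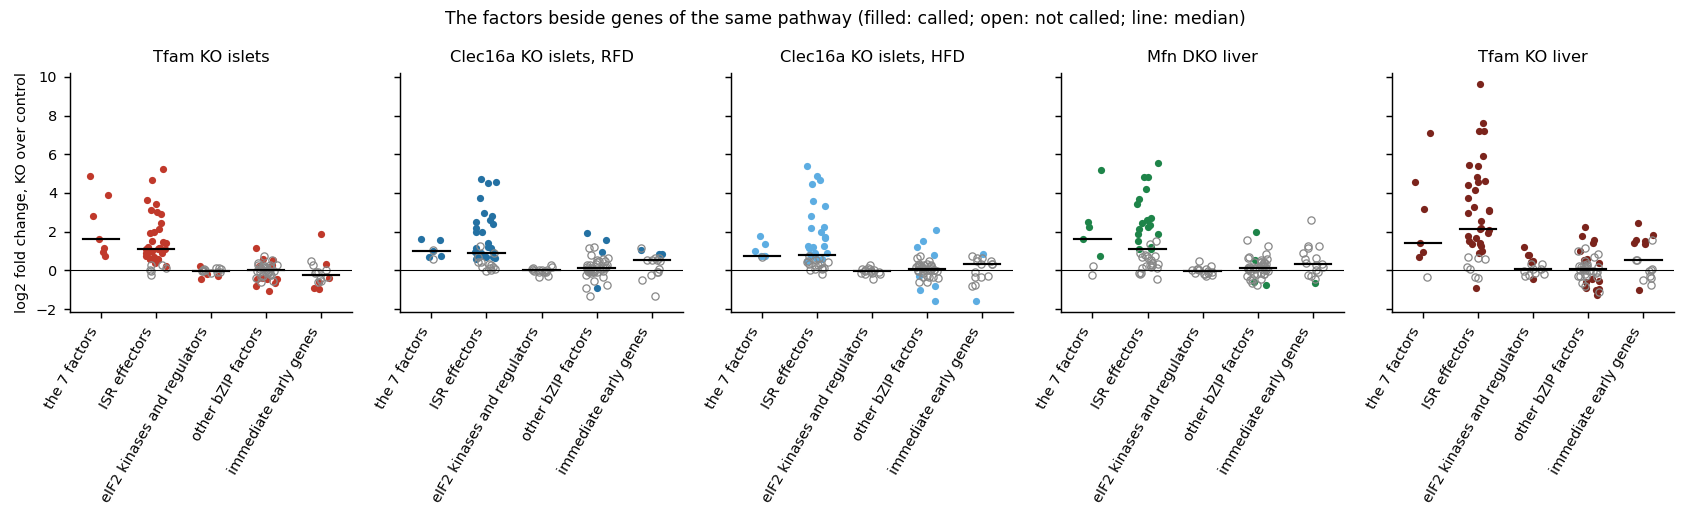
Log2 fold change, knockout over control, of each tested gene of 5 lists in 5 comparisons; filled points are called, open points are not, and the line is the list's median. The 7 factors and the effectors lie mostly above 0 in every panel, while the eIF2 kinases and regulators and the other bZIP factors have medians between -0.03 and 0.10.

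By their median, the eIF2 kinases, subunits and regulators changed far less in RNA than the 7 factors, although some rose in Tfam KO liver. Of 15 eIF2 kinases, subunits and regulators, 1 (6.7%) was called higher and 3 (20%) lower in Tfam KO islets. The shares of all genes there were 11.6% and 9.29%. The kinase gene Eif2ak3 (PERK) was at -0.28 (edgeR adjusted p = 0.00620). None of the 15 was called in Clec16a KO islets or Mfn DKO liver by edgeR. In those, 3.54% to 5.62% of all genes were called in each direction. In Tfam KO liver 5 (33.3%) were called higher and 1 (6.7%) lower, against 18.1% and 11.3% of all genes. Those higher were led by Impact, an inhibitor of the kinase GCN2, at 1.18, and the eIF2 subunit Eif2s1 at 0.78. The count of 4 in Tfam KO islets was 2 without female Tfam KO replicate 1 or 3, male Tfam KO replicate 2 or male control replicate 2. Without Clec16a KO HFD replicate 4 the count was 2 on HFD, and in Tfam KO liver it was 3 without Tfam KO replicate 1 and 2 without replicate 2. Activation of these kinases is by phosphorylation, which RNA does not show.

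Genes of the unfolded protein response of the endoplasmic reticulum were called in both directions in Tfam KO islets. Of 20 genes 3 (15%) were called higher, among them the sensor Ern1 (0.99). A further 7 (35%) were called lower, among them the chaperone gene Dnajb9 (-0.77), and the list's median was -0.28. Of all genes 11.6% were called higher and 9.29% lower there. In Clec16a KO islets 19 of the 20 had an estimate above 0 on each diet. Of these 1 was called on RFD (Sel1l, 0.47) and 2 on HFD (Sel1l and Ern1, 0.54 and 0.53). That is 5% and 10% of the list, against 3.99% and 5.62% of all genes called higher. The list's medians were -0.34 in Mfn DKO and -0.35 in Tfam KO liver. In Mfn DKO 2 (10%) were called higher, against 5.23% of all genes. In Tfam KO 2 (10%) were called higher and 2 (10%) lower, against 18.1% and 11.3% of all genes. These counts hung on single libraries: without Clec16a KO HFD replicate 4 there were 6 on HFD, the Tfam KO liver count of 4 was 10 without Tfam KO replicate 3, 1 without replicate 1 or 2 and 2 without control replicate 3, and that in Mfn DKO liver was 0 or 1 without any 1 Mfn DKO library. Of 12 mitochondrial chaperones and proteases 6 (50%) rose in Tfam KO islets, 3 (25%) in Mfn DKO liver and 6 (50%) in Tfam KO liver. None was called lower in these. In Clec16a KO islets 0 were called on either diet by edgeR, but 3 were on HFD without replicate 4, and DESeq2's Wald test called 1 there. In Tfam KO liver the count was 2 without replicate 1. The protease gene Lonp1 rose by 1.83, 1.81 and 1.95 and the chaperone gene Hspa9 by 1.47, 1.18 and 1.39 in these 3.

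Other bZIP factors were called in both directions. In Tfam KO islets 6 of 42 (14.3%) were called higher and 7 (16.7%) lower, with Nfe2l1 at 0.57 and the unfolded protein response factor Xbp1 at -0.41. On RFD 3 of 41 (7.3%) were called higher and 1 (2.4%) lower in Clec16a KO islets. On HFD there were 4 (9.8%) and 4 (9.8%), with Bach2 (1.94 and 2.07) and Nfil3 (1.57 and 1.53) higher on both diets. Of 43 in liver, 2 rose (4.7%) and 2 fell (4.7%) in Mfn DKO, and 8 rose (18.6%) and 7 fell (16.3%) in Tfam KO. For comparison, 11.6% of all genes were called higher in Tfam KO islets and 9.29% lower. The Clec16a KO shares of all genes were 3.99% higher with 3.54% lower for RFD. For HFD they were 5.62% higher with 3.95% lower. Among all genes in liver, Mfn DKO had 5.23% higher with 4.64% lower, and Tfam KO 18.1% higher with 11.3% lower. The hepatocyte factor Creb3l3 was lower in both knockouts (-0.74 and -1.01). The Tfam KO liver count of 15 was 8 without Tfam KO replicate 2 and 9 without Tfam KO replicate 1 or control replicate 1. The count in Mfn DKO liver was 2 without Mfn DKO replicate 2, that on RFD was 1 without knockout replicate 4 and 2 without control replicate 3 or 4, and that on HFD was 4 without knockout replicate 1 and 5 without replicate 2. Immediate early genes respond to handling of tissue as well as to stress, and the shares of all genes given above apply to them too. Of 16, 2 (12.5%) were called higher and 4 (25%) lower in Tfam KO islets. In Clec16a KO islets 3 (18.8%) and 0 were called on RFD and 1 (6.2%) and 1 (6.2%) on HFD. Of 17 in liver, 0 were called higher and 1 (5.9%) lower in Mfn DKO, and 6 (35.3%) and 1 (5.9%) in Tfam KO. Without Clec16a KO HFD replicate 4 the total was 6 on HFD, where leaving out 1 other library gave 0 to 4, and without Tfam KO liver replicate 2 it was 2 in that liver. With their mean level as a covariate 2 of the 7 factors were called in Mfn DKO liver. Acute phase genes, known targets of C/EBPβ, had 1 of 15 (6.7%) called higher in Mfn DKO liver, against 5.23% of all genes. In Tfam KO liver 2 (13.3%) were called higher, against 18.1% of all genes. Apcs was called in both (3.21 and 3.10).

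The genes whose pattern over the 46 libraries lay nearest to each factor were found by the root mean square difference of log2 CPM, after the mean of each gene within its experiment was subtracted, among 14504 genes. For Atf3 the nearest gene was Ddit3 (0.66), and for Atf5 Cebpg was the second nearest (0.49) after Gadd45a (0.43). The places were not mutual: Atf3 was 11th for Ddit3, and Atf5 was 3096th of 14503 for Cebpg. Nupr1 lay nearest to Tenm4 (0.97), Trib3 (1.01) and Atf3 (1.01). Ddit3 lay nearest to Cyb5r1 (0.38), 2410006H16Rik (0.46) and Hmox1 (0.53). For Atf4 they were Phf10 (0.17), Map4 (0.22) and Taf15 (0.23), for Cebpg Otub2 (0.21), Taf15 (0.22) and Zbtb18 (0.23), and for Cebpb Hyal1 (0.40), Hfe (0.41) and Stard5 (0.42). The distance to the median gene was 0.52 for Atf4, 0.84 for Atf5, 1.61 for Atf3, 1.16 for Ddit3, 0.76 for Cebpb, 0.56 for Cebpg and 2.27 for Nupr1. Small distances for Atf4 and Cebpg go with their small changes. The libraries share tissue, experiment and genotype, and the distances are descriptions.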

How the data were processed

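RNA was measured in 46 mouse libraries of islets and liver, read at both ends. Per the file headers, each deposited table gives raw counts, TPM and CPM for 55487 genes. The authors' CPM equalled the count over the library total, and the authors' TPM was proportional to count over a fixed length per gene within a library. The submitters' processing notes name STAR 2.6.1b, RSEM 1.3.1, featureCounts, DESeq2, FastQC, MultiQC and GRCm38, with no roles, and the strand used in counting is not given in the sources used here. Deposited counts were tested as they stood with edgeR 4.0.16 in R 4.3.3: TMM scaling, filterByExpr by group, the quasi-likelihood test, with p-values adjusted by Benjamini-Hochberg across every tested gene, each experiment fitted alone. The 2 differences between experiments came from fits of all 46 libraries. Both sexes of Tfam islets were fitted with sex as a covariate. CPM printed here was computed on the scaled library sizes, and log2 values for nearest genes had a prior count of 2. TPM served only for levels across groups.

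The members and gene lists were chosen with earlier results of these data known. Named genes are the 7 factors, the targeted genes, at most the 3 genes of smallest adjusted p per list and comparison, the 3 nearest genes per factor and overlapping genes. The marker lists were beta, alpha, delta, acinar, duct, hepatocyte, macrophage, endothelial, and fibroblast and stellate. Of the lists not described in the report, alpha markers had 0 called in Tfam and Clec16a KO islets. Delta markers had 2 of 2 called lower in Tfam KO islets and 0 in Clec16a KO islets. Duct markers had 1 of 4 called lower in Tfam KO islets and 1 higher on each diet in Clec16a KO islets.

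Alternatives were DESeq2 1.42.0 (Wald test, size factors), no filter and a filter of at least 10 counts in every library, each library left out in turn, a replicate block, lane, sex read from Xist (over 100 CPM), acinar and immediate early gene scores as covariates, no sex term, and fits of only the compared groups. The scripts were tested on simulated counts. Of the identifiers, 55141 were found in GENCODE M21, the source of gene positions. Promoter sequences are from RefSeq (GRCm38.p6). Depth was 16235173 to 83342809 counts per library, and a member's lowest count in a library was 9.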

Additional observations from a re-analysis of the deposited data

Results flagged for a closer look

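Of 56 groups of 4 to 6 values of a factor, 2 had a library far from the others by Dixon's criterion, and chance gives about 1 in 20. Atf3 in Mfn DKO liver replicate 4 was 27.4 CPM, with the next at 10.3, and the gap took 0.872 of the group's range against a limit of 0.829. Cebpg in Clec16a KO HFD replicate 4 was 69.1 CPM, with the next at 100.4, and the gap took 0.763 of the range against a limit of 0.710.

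The effect of Tfam loss differed between islets and liver for Cebpb, by 1.97 on the log2 scale, and for Nupr1, by -2.12, in edgeR's test of the difference itself. The report gives their errors and the libraries on which the Nupr1 call rests.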

How the results depend on the processing

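The 7 factors in 14 comparisons gave 98 results, set against 1946 alternative values. Direction and side of the threshold were kept in 1829, the call was lost in 58, a call was gained in 13 and the direction turned in 46. In Tfam KO islets of both sexes all 7 were called under every setting run. Correlations of deviations between libraries of the same replicate number ran from -0.343 to 0.350, and no set of 3 or more pairs had all above 0.1. The 2 male Tfam pairs did (0.192 and 0.212), and in each the libraries were the best match for one another. So were replicate 1 of control and Mfn DKO liver (0.350) and of the Clec16a HFD groups (0.307). This check does not decide whether the replicate numbers pair libraries, and the main fits took no pairing. With the replicate block, the factors called numbered 3 on RFD, 3 on HFD, 2 in Mfn DKO liver, 3 in Tfam KO liver and 1 for Tfam islets against liver, and the Cebpg difference between diets became 0.0586 and the Cebpb difference between Tfam and Clec16a islets -0.0185. With the immediate early gene score 2 were called in Mfn DKO liver. DESeq2's Wald test called 4 between the liver knockouts, where its share of all genes is not given. With the acinar score the sex difference became -0.13 for Atf5, -0.13 for Cebpg, -0.0699 for Ddit3 and -0.30 for Nupr1. The cause was not tested. Leaving out 1 library gave 1 to 5 called on RFD, 3 to 7 on HFD, 3 to 5 in Mfn DKO liver and 0 to 4 between the liver knockouts. The same step turned these uncalled differences. HFD against RFD in controls ran from -0.42 to 0.16 for Atf3, -0.0398 to 0.13 for Atf4 and -0.24 to 0.0177 for Ddit3, and in knockouts from -0.20 to 0.14 for Atf5 and -0.10 to 0.22 for Ddit3. The knockout effect between diets ran from -0.0312 to 0.18 for Atf4 and -0.16 to 0.0922 for Cebpg. Tfam KO against Mfn DKO liver ran from -0.21 to 0.20 for Cebpb and -0.44 to 0.21 for Cebpg. Islets against liver ran from -0.42 to 0.00207 for Atf4 and -0.73 to 0.00545 for Ddit3, Tfam against Clec16a islets from -0.0722 to 0.28 for Atf5 and -0.0714 to 0.12 for Cebpb, and the sexes from -0.0270 to 0.31 for Atf5, -0.0698 to 0.43 for Cebpg and -0.0501 to 0.37 for Ddit3. Atf3 in islet controls rests on 9 counts in its lowest library, which limits its precision there.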

Other observations

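Within groups, single libraries were at the end of the range for several factors at once. Male Tfam control replicate 1 was the highest of 3 for 6 of the 7, Clec16a control RFD replicate 1 the lowest of 4 for 6, and control liver replicate 3 the highest of 6 for 5. In that liver Atf5 was 247 CPM, Ddit3 23.6 CPM and Nupr1 2.69 CPM. These groups are small, and the values are given without a test.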
